A study of Mus musculus with 16 samples.

Results

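Bsn, Rims2, Shank2, Syt2, Srcin1, Kif1a, Cdk5r2 and Cabp7 are 8 genes grouped here as synaptic. They were examined in mouse macrophages, among 21887 protein-coding genes on the chromosomes used. Peaks of each of the 9 deposited lists were taken where they met the bounds of a gene on GRCm38 or the 10 kb either side, which gave 508 peaks. The genes were chosen by their EZH2 and H3K27me3 peaks in an earlier reading of these libraries, which for Bsn included the lack of a nigericin EZH2 peak, so those values describe the choice and test nothing. Primary macrophages had been grown for 5 days with M-CSF medium from bone marrow of adult C57BL/6 mice. Chromatin immunoprecipitation sequencing (ChIP-seq) mapped EZH2 in wild-type cells given nigericin, a potassium ionophore, after LPS priming, and in untreated wild-type cells. H3K27me3, H3K27ac and p53 were mapped in untreated wild-type cells. SIRT1, a deacetylase, was mapped in untreated Ezh2 knockout cells and their Ezh2 wild-type counterpart, and in untreated p53 knockout cells and their p53 wild-type counterpart. The labels do not say how either gene was deleted or how many animals were pooled. No library had LPS alone, so the parts of LPS and nigericin cannot be told apart.

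Each group held 1 library, so no difference between conditions has a replicate check, and every interval covers counting error only. The 9 lists held from 5068 peaks (p53) to 88037 peaks (H3K27me3), and the depth of the libraries in reads is unknown. An H3K27ac peak lay within 1 kb of an end of 10 of 10 macrophage marker genes, against 0 of 6 neutrophil, 2 of 6 lymphocyte, 1 of 6 neuronal and 1 of 5 stromal markers. The lymphocyte markers were Cd79a and Ms4a1, the neuronal one was Eno2 and the stromal one Pdgfrb. H3K27me3 lay at 0 of 10 macrophage, 2 of 6 neutrophil, 4 of 6 lymphocyte, 5 of 6 neuronal and 3 of 5 stromal markers.

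EZH2 is the catalytic subunit of Polycomb repressive complex 2, which methylates histone H3 at lysine 27. H3K27me3 marks genes held silent outside their own lineage and is often centred on CpG-rich starts, while acetylation of the same lysine marks active promoters and enhancers. The 8 genes have different roles. Bsn (Bassoon) and Rims2 (RIM2) build the presynaptic active zone, Syt2 is a calcium sensor of vesicle release, and Kif1a is a kinesin that carries synaptic vesicle precursors along axons. Shank2 is a scaffold of the postsynaptic density, Srcin1 (p140Cap) is a SRC-binding adaptor of dendritic spines, Cdk5r2 (p39) is a neuronal activator of the kinase CDK5, and Cabp7 is a calcium-binding protein.

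RefSeq promoter windows on GRCm38.p6, from 250 bases before a start to 50 after it, were matched for 5 of the 8 genes, with 7 starts in all. They are printed because EZH2 in untreated cells covered 5 of these starts and passed over 2 alternative starts of the same genes. Capitals mark each CG dinucleotide.
Bsn, chr9:108190334-108190633, minus strand, under EZH2: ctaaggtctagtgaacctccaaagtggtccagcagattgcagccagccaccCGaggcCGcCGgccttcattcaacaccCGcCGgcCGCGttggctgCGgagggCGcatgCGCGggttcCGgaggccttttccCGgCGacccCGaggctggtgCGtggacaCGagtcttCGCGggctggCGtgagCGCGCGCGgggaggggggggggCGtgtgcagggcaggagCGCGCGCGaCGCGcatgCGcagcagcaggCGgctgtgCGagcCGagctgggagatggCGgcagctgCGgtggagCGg
Syt2 first start, chr1:134646362-134646661, plus strand, under EZH2: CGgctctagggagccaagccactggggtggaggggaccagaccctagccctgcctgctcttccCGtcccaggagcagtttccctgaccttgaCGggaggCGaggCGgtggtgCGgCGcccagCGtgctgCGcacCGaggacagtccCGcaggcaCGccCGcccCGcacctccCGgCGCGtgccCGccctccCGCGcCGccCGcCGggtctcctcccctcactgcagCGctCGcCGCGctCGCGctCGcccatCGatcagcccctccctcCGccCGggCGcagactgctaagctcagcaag
Syt2 second start, chr1:134709050-134709349, plus strand, no EZH2 peak: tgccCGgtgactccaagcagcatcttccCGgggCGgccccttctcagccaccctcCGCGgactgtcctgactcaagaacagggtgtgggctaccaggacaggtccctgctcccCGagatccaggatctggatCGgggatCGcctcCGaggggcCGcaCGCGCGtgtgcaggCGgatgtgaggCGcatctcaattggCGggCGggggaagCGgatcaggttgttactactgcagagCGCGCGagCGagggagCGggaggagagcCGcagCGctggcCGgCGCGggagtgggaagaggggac
Kif1a first start, chr1:93101825-93102124, minus strand, under EZH2: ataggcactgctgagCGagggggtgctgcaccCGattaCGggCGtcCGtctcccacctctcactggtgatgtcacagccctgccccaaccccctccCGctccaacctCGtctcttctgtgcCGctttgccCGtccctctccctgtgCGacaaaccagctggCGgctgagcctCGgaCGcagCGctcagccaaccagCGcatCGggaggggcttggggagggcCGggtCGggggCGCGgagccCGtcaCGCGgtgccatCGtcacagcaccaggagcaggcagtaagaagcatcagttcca
Kif1a second start, chr1:93082431-93082730, minus strand, no EZH2 peak: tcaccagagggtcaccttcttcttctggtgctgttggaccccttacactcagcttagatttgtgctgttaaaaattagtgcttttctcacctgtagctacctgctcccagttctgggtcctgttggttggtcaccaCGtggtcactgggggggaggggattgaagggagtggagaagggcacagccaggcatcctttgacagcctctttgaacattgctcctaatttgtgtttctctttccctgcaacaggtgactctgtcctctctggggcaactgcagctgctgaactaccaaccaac
Cdk5r2, chr1:74854779-74855078, plus strand, under EZH2: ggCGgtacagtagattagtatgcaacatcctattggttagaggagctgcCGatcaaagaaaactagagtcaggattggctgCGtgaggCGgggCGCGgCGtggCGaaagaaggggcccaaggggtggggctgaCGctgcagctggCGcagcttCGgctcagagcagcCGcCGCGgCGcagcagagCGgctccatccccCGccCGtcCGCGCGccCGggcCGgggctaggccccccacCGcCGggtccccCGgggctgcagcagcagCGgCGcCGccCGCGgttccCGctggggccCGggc
Cabp7, chr11:4747130-4747429, minus strand, under EZH2: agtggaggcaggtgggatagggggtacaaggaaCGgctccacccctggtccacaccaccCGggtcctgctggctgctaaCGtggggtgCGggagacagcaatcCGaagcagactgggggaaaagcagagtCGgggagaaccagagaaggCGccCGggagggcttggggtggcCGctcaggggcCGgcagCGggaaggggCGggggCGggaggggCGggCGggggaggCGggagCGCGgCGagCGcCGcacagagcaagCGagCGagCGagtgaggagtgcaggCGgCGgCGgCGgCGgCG

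The 5 starts under EZH2 held 38 CG dinucleotides at Bsn, 34 at Syt2, 33 at Cdk5r2, 30 at Cabp7 and 24 at Kif1a, against a median of 7 over all 32851 RefSeq windows. At least as many CG as at Bsn were found in 4.95% of all windows, at least as many as at Cabp7 in 11.7%, and at least as many as at Kif1a in 19.98%. Among the 987 windows under an untreated EZH2 peak the median was 21, and all 5 starts lay above it. The second Kif1a start held 1 CG and carried neither EZH2 nor H3K27me3. The second Syt2 start held 28 CG and lay in an H3K27me3 peak of 7.66-fold, yet no EZH2 peak of either list met it. Its count lay within the range of the 5 starts under EZH2. Over all windows, an untreated EZH2 peak met 6.15% of those with at least 20 CG (535 of 8701) and 75 of the 12496 with fewer than 5.

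**Figure D1:**
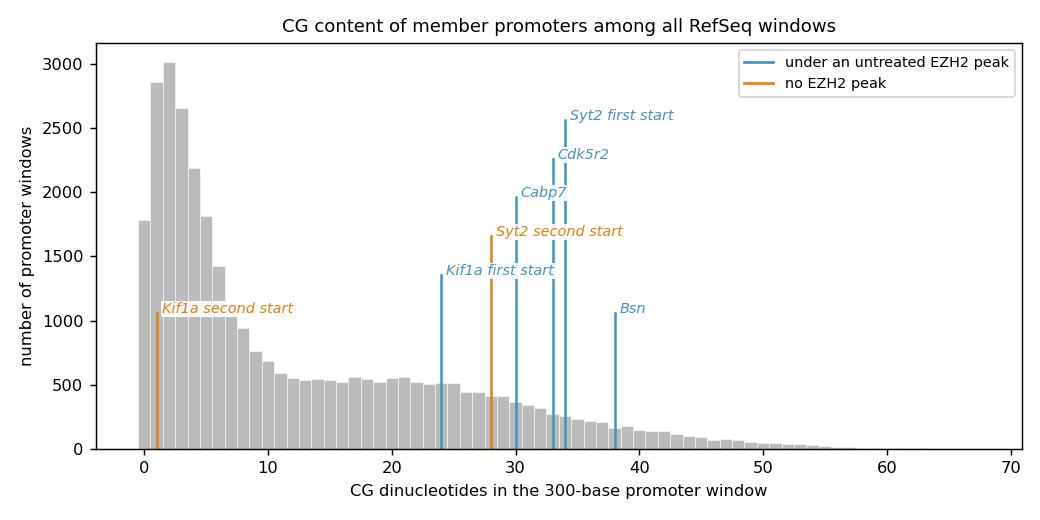
Number of RefSeq promoter windows (y axis) by their count of CG dinucleotides (x axis), with lines at the 7 starts of Bsn, Syt2, Kif1a, Cdk5r2 and Cabp7; line height has no meaning. Starts under an untreated EZH2 peak (blue) held 24 to 38 CG, and those without (orange) held 1 and 28.

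The letters CAGCACC and GGACAG, the left and right parts of the element bound by REST, a repressor of neuronal genes, were looked for on both strands of these windows. CAGCACC occurred 2 times at the first Kif1a start and 1 time at its second start, and in 7.14% of all windows. GGACAG occurred 1 time at the first Syt2 start, 2 times at the second and 1 time at the second Kif1a start, and in 22.2% of all windows. Neither was in the windows of Bsn, Cdk5r2 or Cabp7, which says nothing of REST outside them. The first begins and the second ends in CAG, so matches to both can overlap there, and neither contains a CG.

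All 8 genes had an untreated EZH2 peak in their window, where 19.6% of protein-coding genes did. Long genes collect more peaks: the 6 members of at least 50 kb stood beside 36.5% of genes of that length, and the 2 shorter ones, Cdk5r2 and Cabp7, beside 14.6%. With a q of at most 0.05 there were 7 of 8, where 6.46% of genes passed, and the one without was Shank2. The fold given for a peak is the authors' own value, the fragments at the summit over the local background. The median of the highest fold was 5.52 over the 8 genes and 2.67 over all genes with a peak.

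Among the presynaptic genes, Rims2 (chromosome 15, 39198286 to 39684372, 486 kb) had the highest untreated EZH2 fold, 8.29, in a peak from 39195442 to 39197692 with 30 fragments at its summit (95% Poisson interval 20.2 to 42.8). Only 5 protein-coding genes had a higher fold in their windows. The summit lay 1354 bp outside the lower end of the gene, and a second peak of 3.14-fold (39198106 to 39199574, 37 fragments, 26.1 to 51.0) covered that end itself. Bsn (chromosome 9, 108096022 to 108190419) had an untreated peak of 6.07-fold from 108189264 to 108191430, with 22 fragments (13.8 to 33.3) and its summit 61 bp downstream of the annotated start. Beside it stood a smaller peak of 3.21-fold with 11 fragments. Both genes thus carried EZH2 at 1 end of a long gene and little elsewhere.

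Syt2 (chromosome 1, 134646534 to 134753149) had its strongest untreated peak, 6.69-fold with 29 fragments (19.4 to 41.6), from 134645555 to 134647193, with the summit 485 bp upstream of the first start. Its other 3 untreated peaks had 2.45 to 2.65-fold and 9 or 10 fragments. Kif1a (chromosome 1, 93015455 to 93102039) had a single untreated peak of 3.20 kb, from 93100504 to 93103702, with 5.74-fold, 31 fragments (21.1 to 44.0) and a summit 74 bp upstream of the first start. The pattern of 1 strong peak over the upstream start held at both genes.

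Srcin1 (chromosome 11, 97509340 to 97575246) differed in having its strongest EZH2 peaks inside the gene. The untreated peaks from 97546203 to 97548436 (5.31-fold, 39 fragments, 27.7 to 53.3) and from 97534341 to 97537750 (4.84-fold, 45 fragments, 32.8 to 60.2) had summits 28319 and 40347 bp inside the upper end. A lower one of 2.90-fold (18 fragments, 10.7 to 28.4) had its summit 886 bp inside that end. Cdk5r2 (chromosome 1, 74855029 to 74857732) is 2.70 kb long and was nearly covered by 1 untreated peak from 74854156 to 74857435, with 3.33-fold and 37 fragments (26.1 to 51.0). Cabp7 (chromosome 11, 4736892 to 4747179) had the widest untreated peak of the 8 genes, 5.37 kb from 4744478 to 4749844, with a low fold of 2.37 on 31 fragments (21.1 to 44.0). The low folds of Cdk5r2 and Cabp7 came with many fragments and with local backgrounds of 10.4 and 12.5 fragments, against the list's most common background of 2.74. The windows of Cdk5r2 and Cabp7 also hold the lncRNA genes Gm16582 and Gm35102, which overlap these peaks.

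Shank2 (chromosome 7, 143978077 to 144426043, 448 kb) went against the description of these genes as bound by EZH2. Its 2 untreated peaks, from 144370091 to 144370437 and from 144428305 to 144428620, each had 2.41-fold and 8 fragments (3.45 to 15.8) with a −log10 q of 0. The second of them lay beyond the gene, in the lncRNA gene Gm34561.

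**Figure D2:**
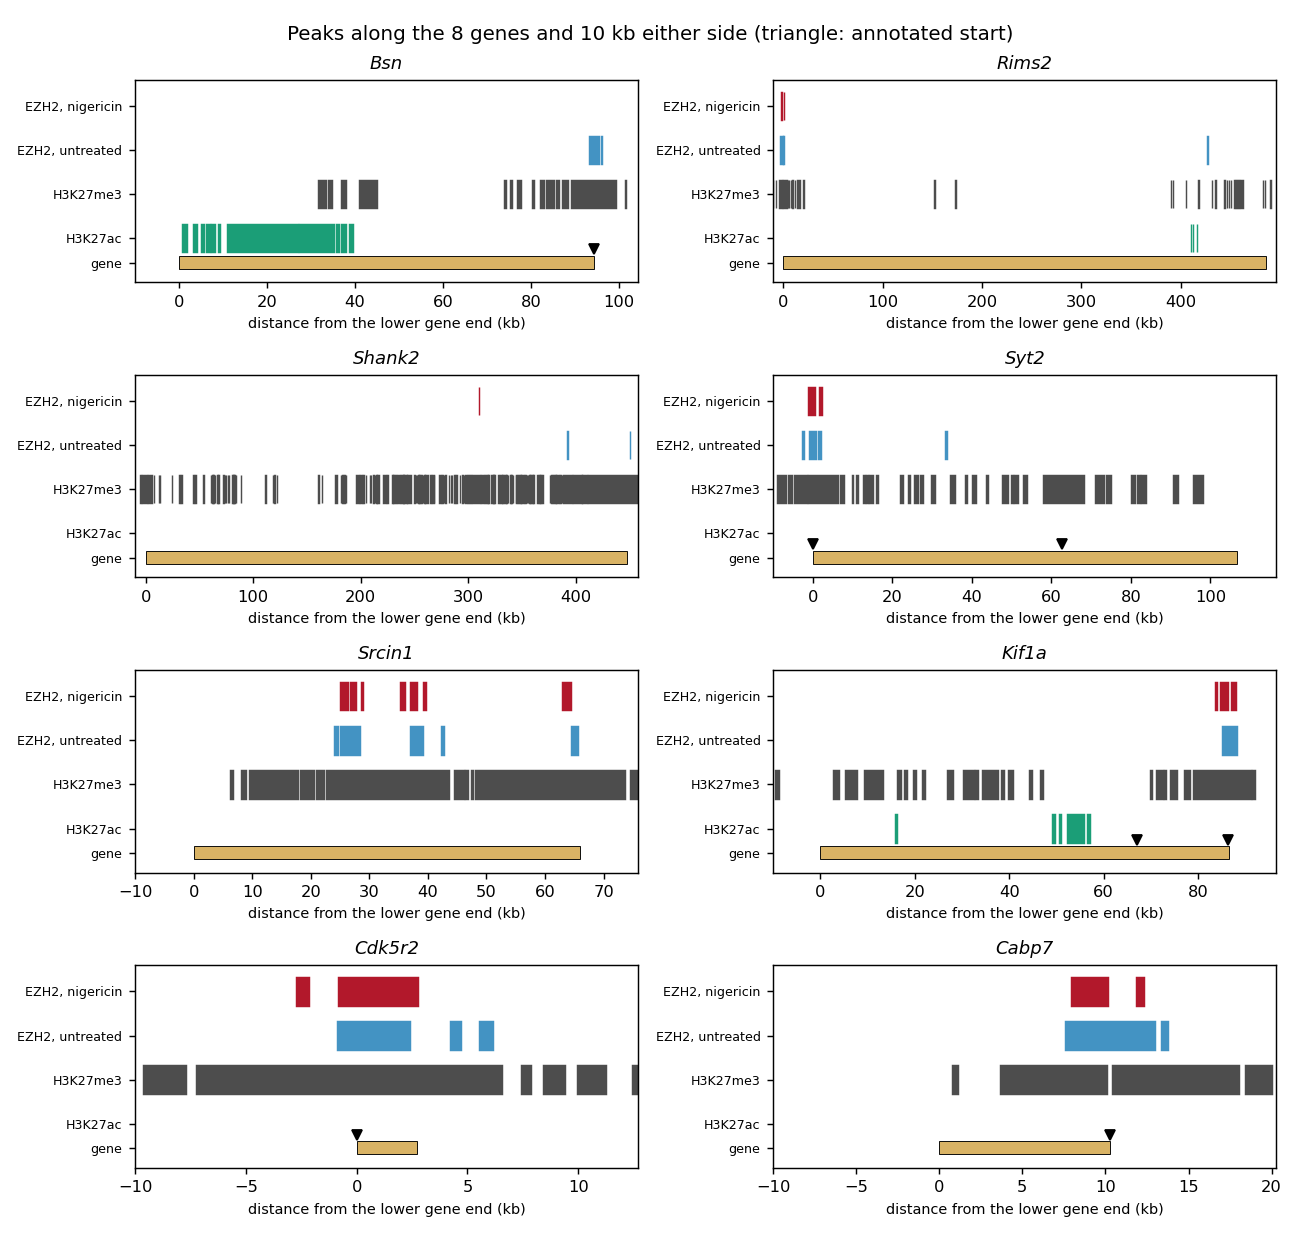
Peaks of EZH2 (LPS and nigericin above untreated), H3K27me3 and H3K27ac as bars along each gene and 10 kb either side, by distance from the lower-coordinate gene end in kb (x axis); the tan bar is the gene and triangles are annotated starts, shown for the 5 genes that have one. The strongest untreated EZH2 peak sits at 1 end of Bsn, Rims2, Syt2 and Kif1a, inside Srcin1 and over Cdk5r2 and the upper end of Cabp7. It lies within H3K27me3, with a small part outside at Rims2 and Cabp7. Shank2 has only weak EZH2 peaks.

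H3K27me3 was called in the windows of all 8 genes, where 42.7% of protein-coding genes, 51.4% of those of at least 50 kb and 40.2% of shorter ones had a peak. Both EZH2 and H3K27me3 were thus in all 8 untreated windows, where 13.9% of genes had both. There were 252 H3K27me3 peaks in the 8 windows. It covered 82.8% of the Cdk5r2 window, 74.6% of Srcin1, 52.9% of Cabp7, 41.1% of Shank2, 39.4% of Syt2, 36.9% of Kif1a, 22.5% of Bsn and 5.67% of Rims2. The median of the 8 was 40.2%, beside a median of 0 and a mean of 9.18% over all protein-coding genes. In bulk chromatin, fewer cells with a mark and less of it in each cell cannot be told apart. Rims2 thus had the highest EZH2 fold and the smallest share of its window under the mark, but its window is the longest, at 506 kb. H3K27me3 covered 28.7 kb there, against 25.7 kb at Bsn, 18.8 kb at Cdk5r2 and 16.0 kb at Cabp7. Kif1a, Syt2, Srcin1 and Shank2 had more than Rims2.

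Srcin1 had the highest H3K27me3 fold, 16.6, in a peak of 25.6 kb over its upper end (97557427 to 97583073), and only 3 protein-coding genes had a higher one. A second peak of 14.5-fold and 20.9 kb (97531998 to 97552874) held both strong EZH2 peaks. Shank2 followed with 14.5-fold in a domain of 85.8 kb, from 144389488 to 144475336. Of that domain, 46.6 kb lay in the Shank2 window and the rest ran on over the cortactin gene Cttn. It held 1 untreated EZH2 peak, of 2.41-fold. Of the 131 H3K27me3 peaks in the Shank2 window, 2 met an untreated EZH2 peak.

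At the other 6 genes wide H3K27me3 peaks met the strongest EZH2 peak. At Cdk5r2 a domain of 13.8 kb (74847775 to 74861592, 11.1-fold) extended past both ends of the gene. At Syt2 the EZH2 peak lay near the lower edge of an H3K27me3 peak of 7.50 kb (134645297 to 134652799, 10.6-fold) and at Kif1a within one of 12.3 kb (93094366 to 93106632, 9.40-fold). Bsn had one of 10.3 kb (108185131 to 108195418, 6.25-fold) and Rims2 one of 3.79 kb (39193767 to 39197559, 8.15-fold). At Cabp7 the annotated start, 4747179, fell in a gap between H3K27me3 peaks of 8.89-fold (ending at 4746957) and 9.14-fold (beginning at 4747311), and the untreated EZH2 peak spanned the gap. In 6 of the 8 windows the H3K27me3 peak with the most of the strongest EZH2 peak was also the highest of the window, the exceptions being Shank2 and Srcin1. The same count over other genes is not given, so 6 of 8 cannot be called unusual.

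Of the 22 untreated EZH2 peaks in the 8 windows, 20 overlapped H3K27me3 (90.9%, exact 95% interval 70.8 to 98.9), beside 41.5% of the whole list. Those outside it lay in Rims2 (39624700 to 39625094) and Syt2 (134679856 to 134680302), each with 2.65-fold and 9 fragments. The genes were chosen by peaks of both lists, so the share of 90.9% describes the choice and its interval tests nothing. In the other direction, 13 of the 252 H3K27me3 peaks (5.16%) held an untreated EZH2 peak, beside 2.90% of the whole list. Those 13 had a median of 9.14-fold and 8.997 kb, beside 3.46-fold and 0.725 kb for the 239 without. Over the whole list the same medians were 6.67-fold and 5.25 kb for the 2552 peaks with EZH2 and 3.46-fold and 0.707 kb for those without. Longer peaks have more room to overlap another.

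H3K27ac was called in 3 of the 8 windows, those of Bsn, Rims2 and Kif1a, where 41.6% of all protein-coding genes, 50.9% of those of at least 50 kb and 38.9% of shorter ones had a peak. Shank2, Syt2, Srcin1, Cdk5r2 and Cabp7 had none. Bsn carried 11 peaks over 31.7 kb, or 27.7% of its window, and 1267 protein-coding genes had a larger share. The peaks ran from 108096675 to 108135648 at the end away from the start and included a domain of 16.2 kb (108106886 to 108123037, 6.81-fold, 89 fragments, 71.5 to 109.5). The highest fold there, 7.07 (108132904 to 108134043), overlapped the lncRNA gene 4930447F24Rik, which lies within Bsn. Bsn was thus acetylated over its far end and methylated over its start.

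The nearest Bsn H3K27ac peak was 53.6 kb from its strongest EZH2 peak. Where the domains approached each other inside Bsn, 2 of the 11 H3K27ac peaks overlapped H3K27me3, and both marks were called over 3.58 kb. In Kif1a, 5 H3K27ac peaks of 1.79 to 4.06-fold covered 5.53 kb, at least 28.0 kb from the EZH2 peak. In Rims2, 3 short peaks of 3.09 to 4.45-fold covered 1.28 kb, 411 kb from the strongest EZH2 peak. Neither gene had an H3K27ac peak that overlapped H3K27me3. None of the 22 untreated EZH2 peaks overlapped H3K27ac (exact 95% upper limit 15.4%), beside 2.17% of the whole list.

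**Figure D3:**
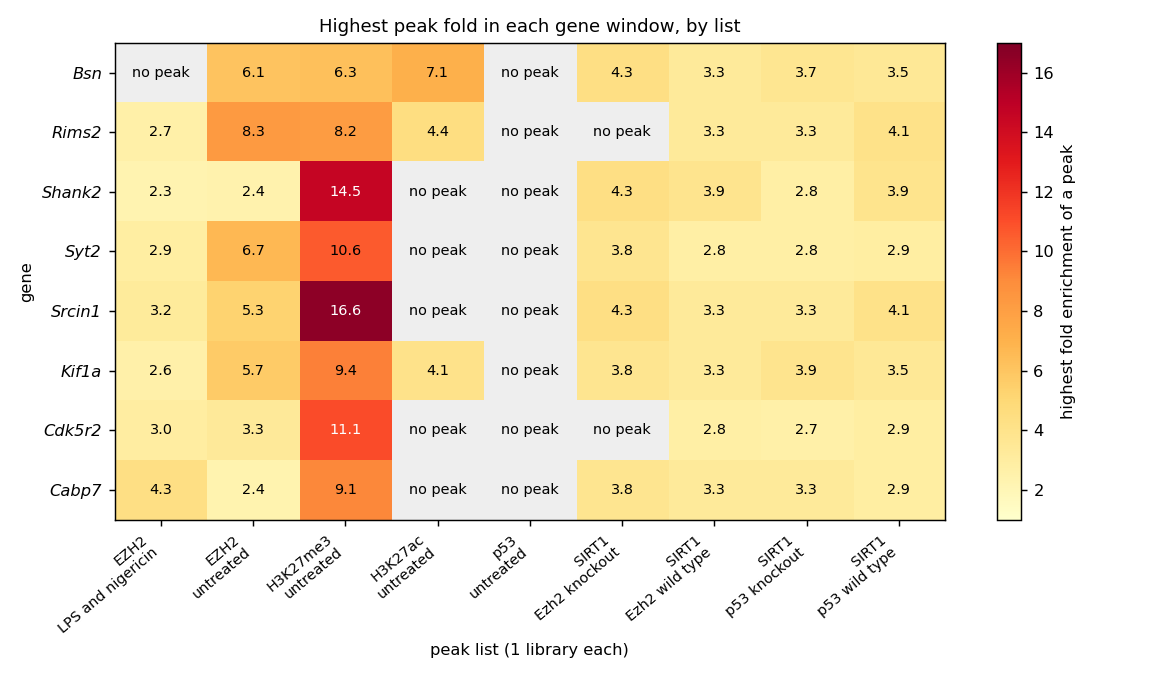
Highest fold enrichment of a peak (colour and number) for each gene (rows) in each of the 9 peak lists (columns, 1 library each); grey cells have no peak. H3K27me3 runs from 6.25 at Bsn to 16.6 at Srcin1, H3K27ac is present in 3 rows, and the p53 column is empty.

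After LPS and nigericin, EZH2 peaks were called in 7 of the 8 windows, where 12.5% of protein-coding genes had one. They were in 5 of the 6 members of at least 50 kb, beside 21.1% of such genes, and in both shorter ones, beside 10% (1696 of 16942). Bsn had none in its window. Of the 1413 protein-coding genes with an untreated EZH2 peak of q at most 0.05, 370 likewise had no nigericin peak (1.69% of all protein-coding genes). With a q of at most 0.05, Srcin1, Cdk5r2 and Cabp7 were left, where 2.77% of genes passed. There were 19 peaks in the nigericin list and 22 in the untreated list, while the whole lists held 5128 and 9771. All 19 nigericin peaks overlapped untreated H3K27me3 (exact 95% lower limit 82.4%), beside 52.6% of the whole nigericin list. Of the 19, 13 met an untreated EZH2 peak (68.4%, 43.5 to 87.4), beside 34.5% of the list. Of the 22 untreated peaks, 10 met a nigericin peak (45.5%, 24.4 to 67.8), beside 16.3% of the list. These overlap shares also describe the choice of the genes, and their intervals test nothing.

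Folds and fragments did not move alike at every gene. At Rims2 the summit held 20 fragments after nigericin (12.2 to 30.9) and 30 in untreated cells (20.2 to 42.8), with folds of 2.68 and 8.29. The local background was 6.82 fragments after nigericin and 2.74 in untreated cells. At Syt2 the fragments were 27 after nigericin (17.8 to 39.3) and 29 in untreated cells (19.4 to 41.6), with folds of 2.23 and 6.69 on backgrounds of 11.6 and 3.49. The Syt2 folds differed by more than the fragments did, and the higher background stood in the nigericin list at both genes.

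Kif1a had 20 fragments after nigericin (12.2 to 30.9) and 31 in untreated cells (21.1 to 44.0), with folds of 2.27 and 5.74. After nigericin its single untreated peak was met by 2 peaks, of 2.27 and 2.56-fold. Srcin1 had 7 nigericin peaks and 5 untreated ones. At its untreated peak from 97546203, 28 fragments (18.6 to 40.5) and 2.66-fold after nigericin stood against 39 fragments (27.7 to 53.3) and 5.31-fold in untreated cells. At its untreated peak from 97534341, a nigericin peak of 3.20-fold with 24 fragments (15.4 to 35.7) stood against 4.84-fold with 45 fragments (32.8 to 60.2).

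At Cdk5r2 the peaks had similar values, with 39 fragments (27.7 to 53.3) and 2.99-fold after nigericin against 37 (26.1 to 51.0) and 3.33-fold in untreated cells. At the pairs named for Rims2, Syt2, Kif1a, Srcin1 and Cdk5r2 the counting intervals of both libraries overlapped. Fragment numbers also scale with the depth of each library, which is unknown. Cabp7 went the other way in fold. Its nigericin peak (4744821 to 4747065) had 4.34-fold and 32 fragments (21.9 to 45.2), and the untreated peak had 2.37-fold and 31 fragments (21.1 to 44.0). The backgrounds were 6.60 fragments after nigericin and 12.5 in untreated cells. Only 125 protein-coding genes had a higher nigericin fold in their windows, while 3458 had a higher untreated one. Shank2 had 1 nigericin peak, of 2.31-fold with 7 fragments, which met no untreated peak. At Bsn the fragments after nigericin are unknown, since a list holds only peaks past its limit.

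Across the 13 pairs of overlapping peaks in the windows, the nigericin fold was higher than the untreated one in 3 and lower in 10, and the ratio of nigericin to untreated had a median of 0.660. Over all 1912 overlapping pairs of the series the median was 0.880 (quartiles 0.670 and 1.13). The pairs share peaks, and the genes were picked with values of both lists known, so nothing particular to them can be read from the lower median. The intervals of the fragments overlapped in 11 of the 13 pairs, the exceptions being minor nigericin peaks under a wide untreated one at Srcin1 and Cabp7. With 1 added to each count, the nigericin to untreated ratio of fragments had a median of 0.677, and 0.824 over all 1912 pairs. The same ratio of local backgrounds had medians of 1.00 in the 13 pairs and 0.924 in the 1912. The caller's local background was higher in the nigericin list in 7 of the 13 pairs and in 787 of the 1912. The part of the background in the fold differences was not tested.

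**Figure D4:**
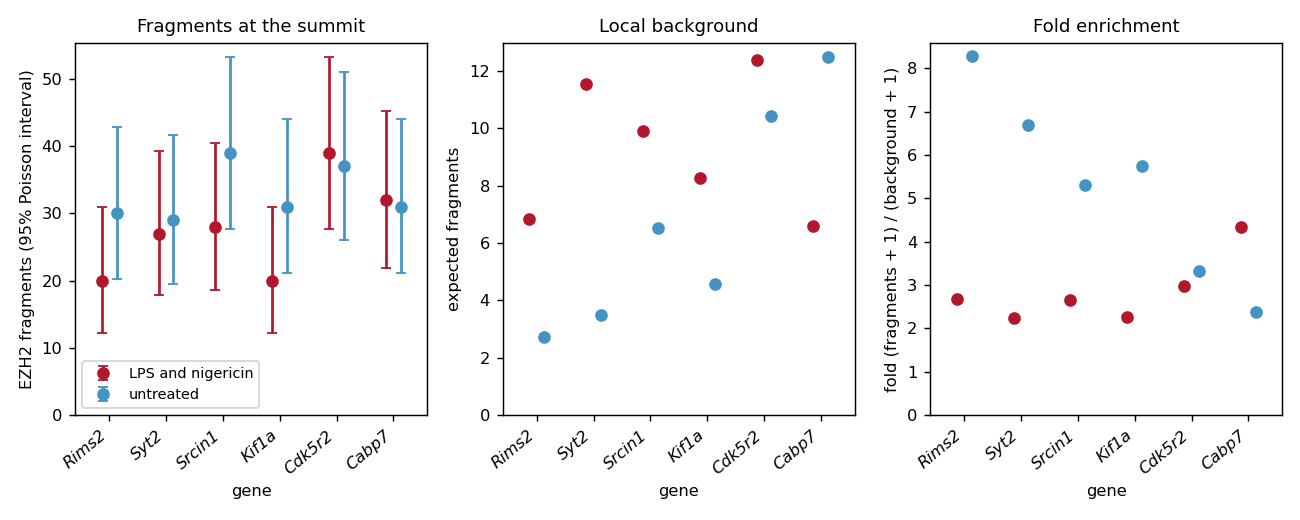
For the strongest overlapping EZH2 peak of 6 genes (x axis), fragments at the summit with 95% Poisson intervals (left), local background in fragments (middle) and fold (right), LPS and nigericin in red and untreated in blue, 1 library each. The intervals overlap at all 6 genes, while the folds run from 2.23 to 4.34 after nigericin and from 2.37 to 8.29 in untreated cells.

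No p53 peak lay in any of the 8 windows. Of all protein-coding genes 7.50% had one, of those of at least 50 kb 18.6% and of shorter ones 4.27%, so a count of 0 among 8 is near the background. With a q of at most 0.05 the share of genes was 0.137%, and within 1 kb of a gene end it was 0.704%. The p53 list rested on few strong peaks, with 59 of 5068 at a q of at most 0.05.

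SIRT1 peaks were present in 6 of the 8 windows in Ezh2 knockout cells and 8 of 8 in Ezh2 wild-type cells, where 44.5% and 76.4% of protein-coding genes had one. They were present in 8 of 8 windows in p53 knockout and in p53 wild-type cells, where 71.8% and 70.9% of genes had one. Among genes of at least 50 kb the shares were 63.0% in Ezh2 knockout, 94.3% in Ezh2 wild-type, 90.5% in p53 knockout and 90.5% in p53 wild-type cells, and among shorter genes 39.1%, 71.2%, 66.3% and 65.2% in the same order. Within 1 kb of a gene end SIRT1 was at 1 of the 8 genes in Ezh2 knockout, 2 in Ezh2 wild-type, 0 in p53 knockout and 1 in p53 wild-type cells, where 11.1%, 24.6%, 24.7% and 24.3% of genes had it. All were weak, with 3 to 7 fragments at the summit, and none had a q of at most 0.05, a limit passed at 2.0%, 0.809%, 1.23% and 0.667% of genes in the same order. The highest −log10 q was 0.839 in Ezh2 knockout, 0.197 in Ezh2 wild-type, 0.275 in p53 knockout and 0.451 in p53 wild-type cells. Nearly all long genes have a SIRT1 peak in 3 of the 4 lists, so these counts say little. Per Mb, the windows held 13.7 peaks in Ezh2 knockout (whole list 6.67), 56.1 in Ezh2 wild-type (27.5), 27.4 in p53 knockout (22.0) and 37.0 in p53 wild-type cells (20.7). The windows are genic and the whole-list rate is over all sequence, and that difference was not tested.

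The windows held 20 SIRT1 peaks in Ezh2 knockout and 82 in Ezh2 wild-type cells, a ratio of 0.244, and the whole lists stood at 0.243. By gene, Ezh2 knockout and wild-type cells had 4 and 15 peaks at Bsn, 0 and 12 at Rims2, 7 and 20 at Shank2, 4 and 14 at Kif1a, and 3 and 3 at Cabp7. Syt2 had 1 and 9, Srcin1 1 and 7, and Cdk5r2 0 and 2. The lower number in the knockout list was thus the same, in proportion, as in the rest of the genome. Of the 20 knockout peaks, 2 overlapped an Ezh2 wild-type peak (exact 95% interval 1.23 to 31.7%), beside 8.01% of the whole knockout list.

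The windows held 40 SIRT1 peaks in p53 knockout and 54 in p53 wild-type cells, a ratio of 0.741, beside 1.06 for the whole lists. The p53 knockout list had fewer peaks at 6 genes, from 9 against 14 at Shank2 to 8 against 9 at Bsn and 1 against 2 at Cdk5r2. Kif1a had 5 in each, and Cabp7 had 2 in p53 knockout and 1 in p53 wild-type cells. The peaks of both lists had 3 to 6 fragments, and none had a q of at most 0.05. With 1 library each, the lower ratio in the windows was not tested. Of the 40 knockout peaks, 1 overlapped a p53 wild-type peak, at Shank2 (exact 95% interval 0.0633 to 13.2%), beside 4.69% of the whole knockout list. One place in Kif1a, from 93062317 to 93062861, had a SIRT1 peak in 3 of the 4 lists, with 6, 4 and 3 fragments in the Ezh2 knockout, Ezh2 wild-type and p53 wild-type lists. Just downstream of the first Kif1a start, SIRT1 peaks of 2.24-fold (Ezh2 knockout, 5 fragments) and 2.32-fold (p53 wild type, 3 fragments) fell within the untreated EZH2 peak. H3K27me3 met 11 of the 20 SIRT1 peaks in Ezh2 knockout and 31 of the 82 in Ezh2 wild-type cells, and 14 of the 40 in p53 knockout and 22 of the 54 in p53 wild-type cells. Over the whole lists the shares were 9.51% in Ezh2 knockout, 8.46% in Ezh2 wild-type, 7.76% in p53 knockout and 8.94% in p53 wild-type cells. H3K27me3 covered 29.8% of these windows, and its part in the higher shares there was not tested.

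Other genes of the synapse were counted by role in 8 lists of 125 genes, 117 of them besides the 8 above. A list was read by the genes with a peak within 1 kb of a gene end. Untreated EZH2 was at 24 of the 117 (20.5%), where 7.54% of protein-coding genes had it. Nigericin EZH2 was at 19 (16.2%), where 4.32% did. H3K27me3 was at 61 (52.1%), where 25.4% of genes had it, and H3K27ac at 20 (17.1%), where 26.3% did. The highest median H3K27me3 fold, members included, was 8.40 for the neuronal calcium-binding genes, beside 5.19 over all genes with a peak.

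In the active zone and release list, EZH2 was at 4 of 23 other genes, led by the SNARE gene Stx1a (EZH2 4.26, H3K27me3 8.15) and the complexin gene Cplx2 (3.15 and 7.66). Of 16 other synaptotagmins 5 had EZH2 and 12 had H3K27me3, with Syt12 (5.04 and 7.41), Syt6 (4.43 and 8.65) and Syt7 (4.09 and 9.88) the highest. Of 12 synaptic vesicle genes 3 had EZH2: the glutamate transporter gene Slc17a7 (3.39 and 13.9), the GABA transporter gene Slc32a1 (3.22 and 12.4) and the synapsin gene Syn2 (2.27 and 5.53), which also had H3K27ac at 4.25-fold. A vesicle transporter gene of glutamate neurons, Slc17a7, and one of GABA neurons, Slc32a1, were thus both under the mark.

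Of 15 other postsynaptic scaffold genes 4 had EZH2, among them Dlgap4 (3.97 and 10.9), Dlgap2 (3.42 and 10.1) and Dlgap3 (3.11 and 7.65), and none had H3K27ac. Of 16 glutamate receptor genes 5 had EZH2, among them the NMDA receptor genes Grin2d (5.48 and 7.49) and Grin1 (2.96 and 11.6) and the kainate receptor genes Grik4 (3.14 and 9.14) and Grik3 (2.94 and 7.16). Of 14 other neuronal calcium-binding genes 2 had EZH2, Cabp1 (5.43 and 8.75) and Necab2 (4.44 and 8.65). Among CDK5 and its regulators, 1 of 7 other genes had EZH2, Cables1 (2.46 and 4.11). Of these 18 genes over the lists, named for their untreated fold, 14 had a nigericin EZH2 peak at an end, with a lower fold than in untreated cells at 13. Naming genes by a high untreated fold favours a lower nigericin fold, so the 13 show no change particular to them. The nigericin fold was also lower in 1197 of all 1912 overlapping pairs of the series. The fold after nigericin was 1.78 at Cabp1, against 5.43 in untreated cells, 2.57 at Grin2d, against 5.48, and 2.63 at Syt12, against 5.04. It was higher at Slc32a1, with 4.20 after nigericin against 3.22 in untreated cells, while Stx1a, Syt7, Syn2 and Grik3 had no nigericin peak at an end. Kinesins differed in H3K27ac, which 8 of 14 others had (57.1%), beside 26.3% of all protein-coding genes. H3K27me3 was at 3 of the 14 (21.4%, beside 25.4%) and EZH2 at none (beside 7.54%), both near the background. Kif1a was the only gene of that list with EZH2.

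**Figure D5:**
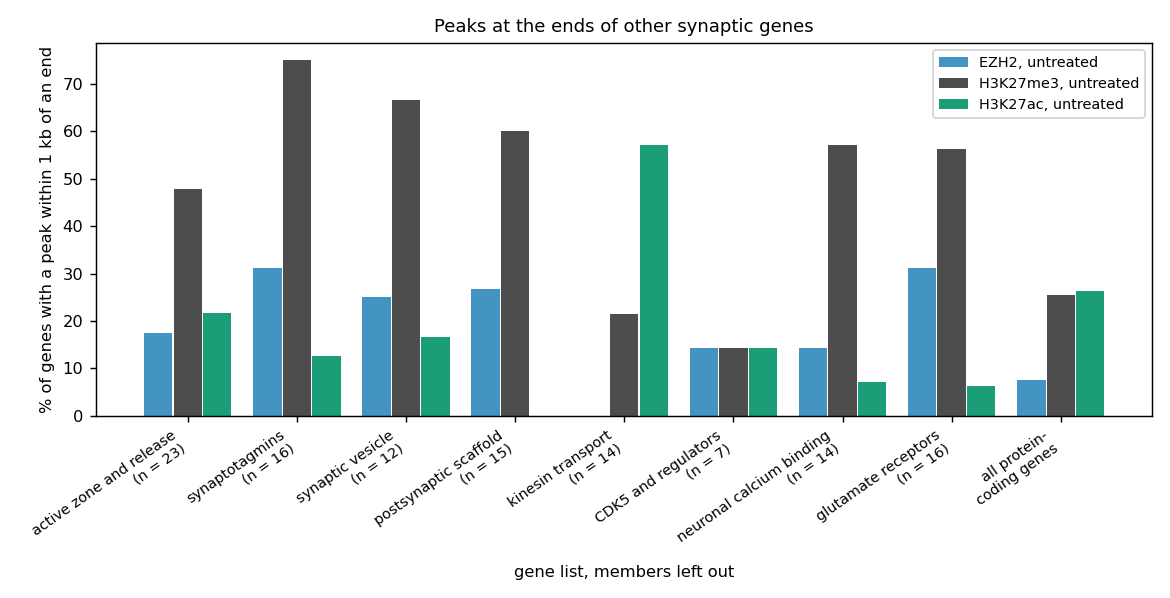
Share of genes, in percent (y axis), with an untreated EZH2, H3K27me3 or H3K27ac peak within 1 kb of a gene end, for 8 lists by role without Bsn, Rims2, Shank2, Syt2, Srcin1, Kif1a, Cdk5r2 and Cabp7, and for all protein-coding genes. H3K27me3 reaches 12 of the 16 synaptotagmins, while H3K27ac reaches 8 of the 14 kinesins.

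The protein-coding genes whose highest folds over the 9 lists lay nearest the mean of the 8 (Euclidean distance on log2 fold, 0 where there was no peak) were Igdcc3 (0.73), Psd (0.73), Fryl (0.73), Pih1d1 (0.78) and Slc17a7 (0.83). Pih1d1 and Slc17a7 are 3.86 kb apart, so their windows share peaks. The 8 genes themselves lay from 1.19 (Syt2) to 2.60 (Bsn) from their mean. The genes above were picked as the nearest of all, so setting the 8 against them does not show how tight the 8 are. Each of the nearest genes had an H3K27ac peak (2.14 to 2.84-fold), which 3 of the 8 and 41.6% of all protein-coding genes had. The mean averages members with and without such a peak, so nearness to it favours a weak one. The median distance of all protein-coding genes was 4.38. Depth and list length are shared by all genes in a list, and the distances carry no test.

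The limit of 10 kb left little EZH2 just outside. The nearest untreated EZH2 peak beyond a window was 13.3 kb past its limit at Cdk5r2 (3.34-fold), and 40.8 to 181 kb past it at the other genes. H3K27me3 went on across the limit at Rims2, Shank2, Srcin1 and Cdk5r2. At Kif1a an H3K27me3 peak of 4.69-fold lay 0.306 kb outside the limit and one of 2.87-fold lay 0.329 kb inside it.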

How the data were processed

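ChIP-seq peak lists of 9 immunoprecipitated libraries were used, and the 7 inputs were not analysed here on their own. The submitters' processing notes name GRCm38 and mm10 as the build and MACS2 and deepTools among the tools. The aligner, versions and filters on reads are not given there. Each ChIP library has its own deposited list, made with an input per the series' design text. In the deposited files, the fold ratio is the signal at the summit over the local background, the −log10 columns hold each peak's p-value and q-value, the score is a −log10 value times 10, and the last column is the summit position. Peaks on 21 chromosomes were kept, 1-based. Gene bounds came from a RefSeq table of GRCm38. An overlap was 1 bp or more. Fragments at each summit and the local background were solved from the deposited fold and p-value under the caller's Poisson model with a pseudocount of 1, a step tested on simulated data. Intervals are exact Poisson (fragments) or Clopper-Pearson (shares), at 95%, and PCR copies make them too narrow. With 1 library per group no test of conditions was made. The 8 genes, the role lists and the markers were chosen with earlier results of these data known. Genes named were the 8, up to 4 genes per role list with the highest untreated EZH2 fold at an end, the 5 nearest in pattern, and genes that a named peak overlaps. Alternatives were no flank, 1 kb around gene ends, stricter q, lists of equal length and an overlap of 50% of the shorter peak. Python 3.11.15, pandas 2.3.3, numpy 2.4.6, scipy 1.17.1 and matplotlib 3.10.9 were used.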

Additional observations from a re-analysis of the deposited data

How the results depend on the processing

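Of 58 recomputed values, 37 stayed near those reported. Among them were the counts of members with H3K27me3, always 8, and with untreated EZH2, which fell from 8 to 6 at a −log10 q of at least 5. The p53 count stayed at 0, but each alternative for it was narrower, so it could not rise. With a q of at most 0.05, members with a nigericin EZH2 peak were 3, and with a −log10 q of at least 5 there was 1. Both thresholds left 0 members with a SIRT1 peak in each of the 4 lists. Around gene ends alone, 1 member had H3K27ac, and SIRT1 was at 1 member in Ezh2 knockout, 2 in Ezh2 wild-type, 0 in p53 knockout and 1 in p53 wild-type cells. With lists of equal length, 5 members had SIRT1 in Ezh2 wild-type cells and 6 in Ezh2 knockout cells. No share of all genes stands beside the counts at a −log10 q of at least 5 or with lists of equal length. Untreated EZH2 peaks lay in H3K27me3 at 100% under both thresholds. Nigericin peaks met untreated ones at 100% with a q of at most 0.05, where only 4 nigericin peaks were left in the windows. With a −log10 q of at least 5 the overlap was 0% in both directions. The only nigericin peak left there was that of Cabp7, at 7.57, and its untreated partner, at 1.90, had dropped out. These changes follow from fewer or shorter intervals being counted. No paired analysis was possible because each group held 1 library. The SIRT1 peaks of the windows rest on 3 to 7 fragments each, the depth of every library is unknown, and a place without a listed peak is not shown to be unbound.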
